A study of Rattus norvegicus with 6 samples.

Results

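The miR-26 family of the rat testis was followed here in 6 small RNA libraries, 3 from diabetic and 3 from normal animals. Its members were chosen by name, as the entries of the deposited table called miR-26a or miR-26b, and the family was put forward with the levels and group differences of these libraries already known. For that reason its diabetic against normal differences are given as a description, and no p-value is read as a test of them. The rule found 4 of the 721 entries of the table: rno-miR-26a-5p, rno-miR-26a-3p, rno-miR-26b-5p and rno-miR-26b-3p. The animals were adult male Sprague-Dawley rats. By the study's methods, the diabetic rats were fed a high-fat diet and then given a single dose of streptozotocin (STZ), which destroys the insulin-producing beta cells of the pancreas, and only rats with persistently raised blood glucose counted as diabetic. The normal rats were injected with the citrate buffer alone. Testes were taken 8 weeks later. The diet of the normal rats and the exact age of the animals were not stated, and the libraries were made from whole testis, so fewer cells of a type and less RNA per cell cannot be told apart. Every library held between 305476 and 549446 reads over the listed miRNAs, recovered from the deposited CPM values, in which each library adds up to 1000000 over all listed miRNAs. As a check of the tissue, all 10 germ cell markers on a list of testis miRNAs were detected, and together they held between 375451 and 424743 CPM.

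A miRNA is cut from a hairpin precursor. Of the 2 arms of the hairpin, the 5p arm lies before the loop and the 3p arm after it, and usually a single arm is kept in an Argonaute protein while the other, the passenger, is degraded. The kept arm recognises messenger RNAs mainly through its seed, bases 2 to 8 from its 5′ end. miR-26a and miR-26b are widely expressed vertebrate miRNAs that lie in introns of genes for small C-terminal domain phosphatases. They are known for restraining the cell cycle and for targeting Ezh2, the methyltransferase of Polycomb complex 2, and miR-26a is also known for acting on insulin sensitivity in liver. In the RefSeq table of rat assembly GRCr8, Mir26a lay within the span of Ctdspl and Mir26b within that of Ctdsp1, and each was listed as 1 gene.

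The mature sequences are shown to compare the paralogs, 5′ to 3′ and as RefSeq gives them for GRCr8, with the seed in capitals.
rno-miR-26a-5p: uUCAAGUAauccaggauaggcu
rno-miR-26b-5p: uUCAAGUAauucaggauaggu
rno-miR-26a-3p: cCUAUUCUugguuacuugcac
rno-miR-26b-3p: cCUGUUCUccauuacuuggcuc

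Both 5p arms carried the seed UCAAGUA. None of the other miRNAs of the table shared it, among the 492 entries that had a RefSeq sequence. Over the 21 bases that both 5p arms have, 19 were identical. The differences were C11U and C21U, where the miR-26a-5p base comes first, positions count from 1 at the 5′ end and the miR-26b-5p base comes last. miR-26a-5p was also 1 base longer (22 against 21). The 3p arms were less alike, with 14 identical bases of 21, and they differed within the seed by A4G, so that CUAUUCU of miR-26a-3p and CUGUUCU of miR-26b-3p are different seeds. Each 3p seed was found in 0 other entries. How the authors assigned reads that match both 5p arms, such as reads with a sequencing error at base 11, was not given in the sources used here, so the split of reads between them is uncertain.

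The hairpins show where the 2 arms of each precursor lie. The mature arms are in capitals, the 5p arm to the left.
Mir26a: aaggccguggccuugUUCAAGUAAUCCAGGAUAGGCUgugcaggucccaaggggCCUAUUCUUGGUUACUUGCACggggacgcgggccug
Mir26b: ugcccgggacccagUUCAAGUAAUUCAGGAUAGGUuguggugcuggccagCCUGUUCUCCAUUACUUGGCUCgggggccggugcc

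The family took 61394 of 2690910 reads over the 6 libraries, and nearly all of them came from miR-26a-5p. This arm held 58086 reads, miR-26b-5p 3297, miR-26b-3p 10 and miR-26a-3p 1. In single libraries the family made up between 2.27% and 2.41% of diabetic reads and between 2.12% and 2.44% of normal reads. The diabetic mean was 2.37% ± 0.0813 and the normal mean 2.22% ± 0.186 (mean ± SD of 3 libraries, here and below). These ranges overlapped, and the normal group held both the highest and the lowest share.

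miR-26a-5p was at 22676, 22787 and 21356 CPM in diabetic replicates 1, 2 and 3. In normal replicates 1, 2 and 3 it was at 20163, 23196 and 20042 CPM. Normal replicate 2 was the highest of all libraries and the other normal libraries the lowest, so the groups overlapped. The diabetic mean of 22273 ± 796 CPM was 1.05 times the normal mean of 21134 ± 1787 CPM (SD, n = 3). On the log2(CPM + 1) scale the diabetic mean exceeded the normal mean by 0.08 with a standard error of 0.09 (limma fit over the whole table), which is within the spread between replicates. Scaling by upper-quartile factors instead of library totals turned this difference to -0.029, against a shift of -0.11 in the median of all miRNAs tested, and relative to that median it was 0.07 under both scalings.

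miR-26b-5p, the seed paralog, was at 1431, 1349 and 1354 CPM in diabetic replicates 1, 2 and 3. In normal replicates 1, 2 and 3 it was at 993, 1182 and 1121 CPM. Every diabetic library was above every normal library. These levels stood for 437, 502 and 744 reads against 438, 582 and 594 reads, and the 95% Poisson interval of diabetic replicate 2 (1234 to 1473 CPM) overlapped that of normal replicate 2 (1087 to 1282 CPM). These intervals cover counting error only. The diabetic mean of 1378 ± 45.6 CPM was 1.25 times the normal mean of 1098 ± 96.3 CPM (SD, n = 3). The difference on the log2(CPM + 1) scale was 0.33 with a standard error of 0.12 in the same limma fit. With upper-quartile factors it was 0.22, and relative to the median of all miRNAs tested it was 0.32 there and 0.33 in the main scaling.

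**Figure D1:**
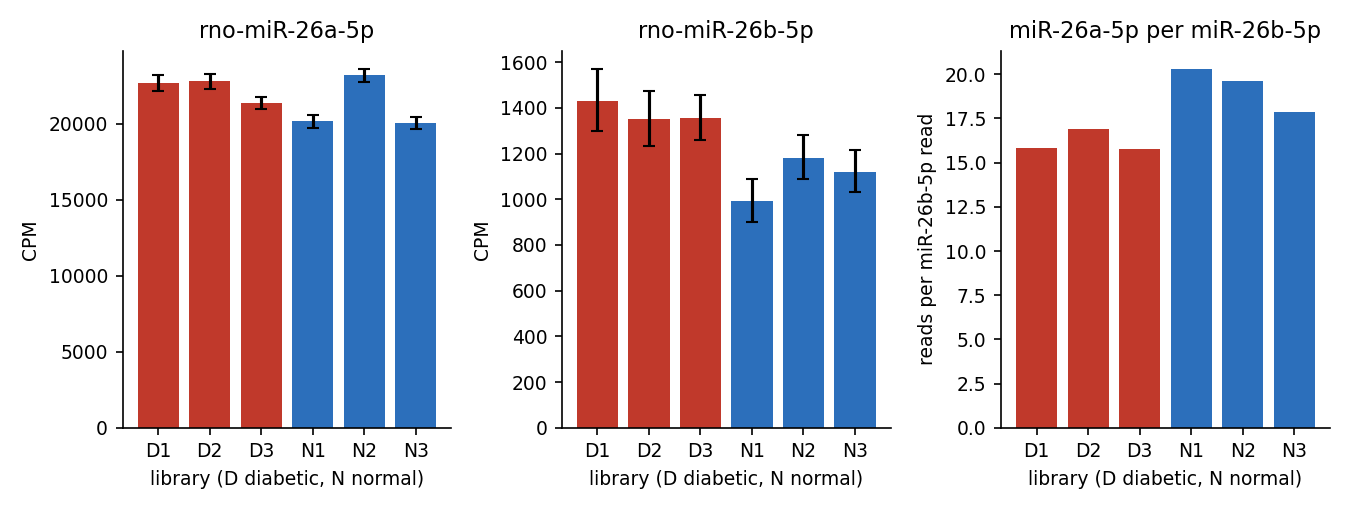
Level of rno-miR-26a-5p (left) and rno-miR-26b-5p (middle) in CPM, and reads of miR-26a-5p per read of miR-26b-5p (right), in the 3 diabetic (D, red) and 3 normal (N, blue) libraries. Error bars are 95% Poisson intervals of the reads, and the right panel has none. The middle panel runs from 993 to 1431 CPM with the diabetic bars higher, and the right panel from 15.8 to 20.3 with the diabetic bars lower, while the left bars overlap between groups.

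Because both arms come from the same library, their ratio does not depend on how libraries are scaled. There were 15.9, 16.9 and 15.8 reads of miR-26a-5p per read of miR-26b-5p in diabetic replicates 1, 2 and 3. In normal replicates 1, 2 and 3 there were 20.3, 19.6 and 17.9. All diabetic values lay below all normal values, with normal replicate 3 the closest to the diabetic group. The diabetic mean was 16.2 ± 0.623 and the normal mean 19.3 ± 1.25 (SD, n = 3). In log2 units the balance was lower in diabetic libraries by 0.25 (the difference was -0.25, with a standard error of 0.06 from the group SDs). As a share, miR-26b-5p made up 5.83% ± 0.207 of the 5p reads of the family in diabetic libraries, against 4.94% ± 0.313 in normal ones (SD, n = 3). The exact binomial 95% intervals of the nearest libraries overlapped, at 5.12% to 6.09% in diabetic replicate 2 and 4.89% to 5.73% in normal replicate 3. This ratio repeats the miR-26b-5p difference in another form and is not separate evidence of it.

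Of the 4 entries, 3 passed the filter on low values (at least 1 CPM in at least 3 libraries) and entered the fit over 578 miRNAs. miR-26a-3p did not. At an adjusted p under 0.05 (limma, Benjamini-Hochberg), 0 of the 3 were called, as were 0% of all miRNAs tested. The edgeR quasi-likelihood test called 2 miRNAs and the DESeq2 Wald test 1, none of them in the family. At an unadjusted p under 0.05, 1 of the 3 was called, miR-26b-5p, against 51 of 578 (8.82%). The groups did not overlap for 1 of the 3, again miR-26b-5p, against 14.9% of all miRNAs in either direction and 7.96% with the diabetic group higher. Since the family was put forward with this contrast known, nothing is read from these counts. Over 257 miRNAs for which each library held 10 or more reads, the median difference was 0.04 on the log2(CPM + 1) scale. There, 27 had a larger positive difference than miR-26b-5p and 112 a larger one than miR-26a-5p. Of these 257, the groups did not overlap for 27 with the diabetic group higher and for 20 with it lower.

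**Figure D2:**
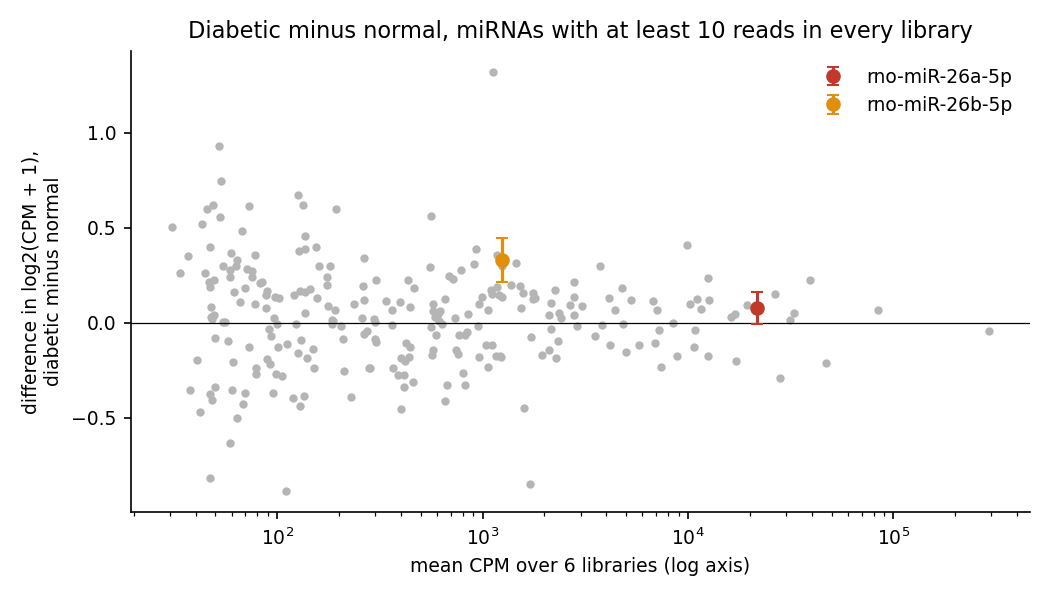
Diabetic minus normal difference in log2(CPM + 1) against mean CPM over the 6 libraries (log axis) for 257 miRNAs for which each library held 10 or more reads (grey). The 2 coloured points are miR-26a-5p and miR-26b-5p with their standard errors. miR-26a-5p lies at 0.08, close to the line at 0, and miR-26b-5p at 0.33 among the upper points of its range of CPM.

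The passenger arms were at the limit of detection. miR-26a-3p had 1 read, in diabetic replicate 3, and 0 in the other 5 libraries. miR-26b-3p had 0, 1 and 2 reads in diabetic replicates 1, 2 and 3, and 1, 3 and 3 reads in normal replicates 1, 2 and 3. Every library was thus at or under 3 reads, the smallest count treated as measured, and no fold between groups is given for either arm.

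Over all libraries the 3p arm made up 0.00172% of the reads of the miR-26a hairpin, with an exact binomial 95% interval of 4.36e-05% to 0.00959%. For miR-26b the share was 0.302%, with an interval of 0.145% to 0.555%. The intervals did not overlap, so relative to the listed 5p arm the 3p arm was more frequent in miR-26b than in miR-26a at this depth, as far as counting error goes. Genomic copies of miR-26a beyond the RefSeq gene could not be checked. Any further copy with the same 5p arm would add to the 5p reads, so the miR-26a share and its places below refer to the listed arms. Between groups the miR-26b share was 3 of 1686 reads in diabetic libraries (0.178%, 0.0367% to 0.519%) and 7 of 1621 in normal libraries (0.432%, 0.174% to 0.888%). These intervals overlapped, and a difference was not detectable at this depth.

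Compared with other precursors, both hairpins were strongly one-sided. Of all hairpins, 178 had both arms listed under one name, and 87 of these had at least 1000 reads. Every listed entry held at least 1 read, so hairpins with an arm that had no reads are not among them. The places and the median below hold only for hairpins with reads from both arms. The less abundant arm took a median of 1.54% of the reads of these 87. The miR-26a share, which rests on 1 read of its 3p arm, was the lowest of these 87. The intervals of its neighbours in that order overlapped it. The next were miR-99a, with 2 of 76060 reads from its 3p arm, and miR-741, an X-linked testis miRNA, with 4 of 105599 reads from its 5p arm. In the order of 5p over 3p reads among all 178 hairpins, miR-26a was at place 1, followed by miR-99a, miR-21 and let-7g. miR-26b was at place 20, between miR-450a, miR-93 and miR-34c just above it and let-7b, miR-146a and let-7i just below. The germ cell miRNA miR-34c had 0.264% of its reads on the 3p arm and let-7b 0.357%, both within the interval of miR-26b. A hairpin with few reads cannot show so low a share, so places in this order depend on read number too.

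**Figure D3:**
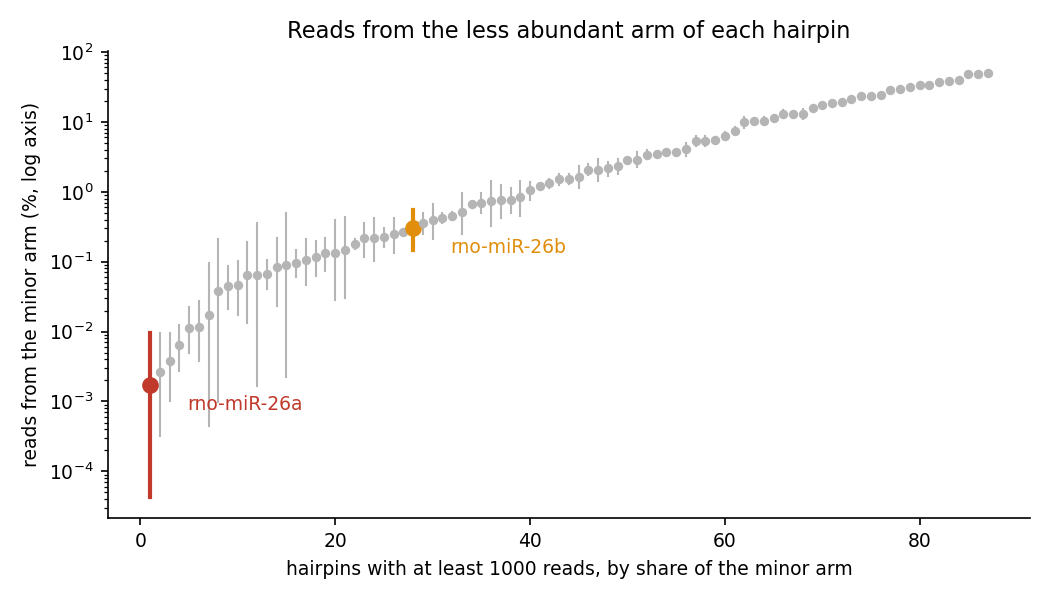
Share of reads from the less abundant arm (percent, log axis), in increasing order. Shown are the 87 hairpins with both arms listed and at least 1000 reads over the 6 libraries. Points are shares and lines exact binomial 95% intervals, with miR-26a in red at 0.00172% and miR-26b in orange at 0.302%, both below the median of 1.54%.

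In the order of mean CPM, miR-26a-5p was at place 9 of 721 and miR-26b-5p at place 69. miR-26a-5p was at place 9 in 5 libraries and at place 10 in normal replicate 3. Its neighbours were chosen after the values were seen. miR-449a-5p and let-7g-5p, just above it, were higher in 6 of 6 libraries with ranges that did not overlap. Its range of 20042 to 23196 CPM overlapped those of miR-99a-5p (20126 to 34806 CPM) and miR-30d-5p (16430 to 23064 CPM), so the order among these is not fixed. CPM has no length term and mature miRNAs are of about the same length. How well each is ligated and amplified was not measured.

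miR-26b-5p stood among miRNAs of other hairpins. The miRNAs just above it were miR-743a-5p (1459 ± 189 CPM), miR-201-5p (1368 ± 110 CPM) and miR-221-3p (1244 ± 167 CPM), and those just below were miR-126a-5p (1236 ± 110 CPM), miR-146a-5p (1226 ± 144 CPM) and miR-27a-3p (1212 ± 224 CPM; SD, n = 6 each). Against its own 1238 ± 167 CPM (SD, n = 6), the ranges of all 6 overlapped. miR-743a-5p and miR-201-5p, which belong to X-linked testis clusters, were nevertheless higher than miR-26b-5p in 6 of 6 libraries. miR-26b-3p stood at place 497 beside the predicted entries 17_39698_star and 3_11049 and beside miR-449c-3p, miR-20a-3p, miR-21-3p and miR-582-5p, which held 8 to 10 reads each over the 6 libraries, so that its place carries little information.

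Across the 6 libraries miR-26a-5p was among the steadier miRNAs. Its standard deviation in log2(CPM + 1) was 0.09, and of the same 257 miRNAs 14 (5.45%) had a smaller one. For miR-26b-5p it was 0.20, near the median of 0.22, and 112 (43.6%) had a smaller one. Within groups the spreads of the paralogs were close: 0.05 for both in the diabetic group, and 0.12 for miR-26a-5p and 0.13 for miR-26b-5p in the normal group. These places were not adjusted for abundance.

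Other miRNAs were closer in pattern to each paralog than the paralogs were to each other. Pearson's r between them was 0.67 over the 6 libraries, which put miR-26a-5p at place 36 of 226 known miRNAs in order of likeness to miR-26b-5p, and miR-26b-5p at place 26 in order of likeness to miR-26a-5p. The miRNAs most like miR-26b-5p were miR-9a-3p (r = 0.97), miR-296-5p (0.96), miR-202-5p (0.94), miR-742-5p (0.93) and miR-340-3p (0.91). The least alike were miR-122-5p (r = -0.89), miR-224-5p (-0.86), miR-542-3p (-0.85), miR-215 (-0.85) and miR-21-5p (-0.85). All values are over the same 6 libraries, which share their depth and group, and they are given as a description of pattern only.

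Markers of several cell types differed between the groups in the direction of miR-26b-5p or against it. The 2 Sertoli cell markers, miR-202-5p and miR-202-3p, summed to between 4102 and 4467 CPM in diabetic and between 3262 and 3693 CPM in normal libraries. This sum was almost all miR-202-5p, which was higher in the diabetic group (4107 ± 188 against 3340 ± 236 CPM), whereas miR-202-3p had the lower diabetic mean (130 ± 12.7 against 150 ± 28.9 CPM; SD, n = 3) with groups that overlapped. The 2 endothelial markers, miR-126a-3p and miR-126a-5p, summed to between 11722 and 13783 CPM in diabetic and between 8662 and 11086 CPM in normal libraries. Of these, miR-126a-3p was higher in every diabetic library and miR-126a-5p overlapped between the groups. The miR-202-5p and miR-126a-3p levels, and with them both sums, thus lay higher in every diabetic library, as miR-26b-5p did. The liver miRNA miR-122-5p lay lower in every diabetic library, between 936 and 1372 CPM against 1839 and 2786 CPM. The sums of the 10 germ cell, 2 smooth muscle, 5 leukocyte, 3 red blood cell and 6 epithelial markers overlapped between the groups. Single markers did not. miR-741-3p of the germ cell list was higher in every diabetic library, by 0.22 in log2(CPM + 1) (standard error 0.08). miR-142-3p of the leukocyte list (-0.45, standard error 0.16) and miR-205 of the epithelial list (-1.61, standard error 0.59) were lower in each. miR-205 held only 2 to 24 reads per library. The groups overlapped for every other marker of these lists. Over these lists 0 markers had 0 reads in every library. The part of these cell types in the miR-26b-5p difference was not tested.

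Another 4 lists of miRNAs place the family beside its known roles. The first holds 8 miRNAs known for targeting Ezh2, as miR-26 does. By sign 3 had a higher and 5 a lower diabetic mean, with a median log2 difference of -0.07 against 0.0046 over all 578 tested, and 0 passed an adjusted or unadjusted p of 0.05 in limma. The most abundant were let-7c-5p (-0.13 ± 0.09, difference ± SE in log2(CPM + 1)), let-7a-5p (0.0016 ± 0.09), let-7b-5p (-0.07 ± 0.10) and miR-101b-3p (0.04 ± 0.11).

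The second list holds 11 miRNAs known for restraining the step from G1 to S phase of the cell cycle. Of these, 6 had a higher and 5 a lower diabetic mean, with a median log2 difference of 0.0016, and 0 passed either threshold. miR-34c-5p, the most abundant miRNA of these testes at a mean of 291471 CPM, differed by -0.04 ± 0.08 and its family member miR-449a-5p by 0.01 ± 0.08. miR-16-5p differed by -0.12 ± 0.11.

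The third list holds 15 miRNAs that, like miR-26, lie in introns of protein-coding genes. By sign 6 were higher and 9 lower in the diabetic group, with a median log2 difference of -0.04. It was -0.08 without miR-153-3p, which stayed at or under 3 reads in every library. At an adjusted p under 0.05, 0 were called, and 2 of 15 at an unadjusted one, against 8.82% of all miRNAs. These were miR-128-3p, with a diabetic mean of 671 ± 144 CPM and a normal mean of 452 ± 76.1 CPM, and miR-204-5p of the Trpm3 gene, with means of 1314 ± 171 and 1022 ± 86.3 CPM (SD, n = 3). miR-128-3p was named after its values were seen. The groups did not overlap for 5 of the 15, in 2 with the diabetic group higher and in 3 lower, against 14.9% of all miRNAs. The most abundant were miR-103-3p (0.07 ± 0.09), miR-25-3p (-0.01 ± 0.09) and miR-93-5p (-0.17 ± 0.11).

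The fourth list holds miRNAs known for acting on insulin signalling or glucose handling, of which 9 of 10 were in the table. By sign 7 were higher and 2 lower in the diabetic group, with a median log2 difference of 0.07, and 0 passed either threshold. miR-143-3p differed by 0.07 ± 0.09, miR-29a-3p by 0.13 ± 0.09 and miR-7a-5p by 0.18 ± 0.09. The groups did not overlap for miR-7a-5p, which was higher in every diabetic library, or for miR-107-3p, which was lower in each and was named after its values were seen. These were 2 of 9, against 14.9% of all miRNAs.

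**Figure D4:**
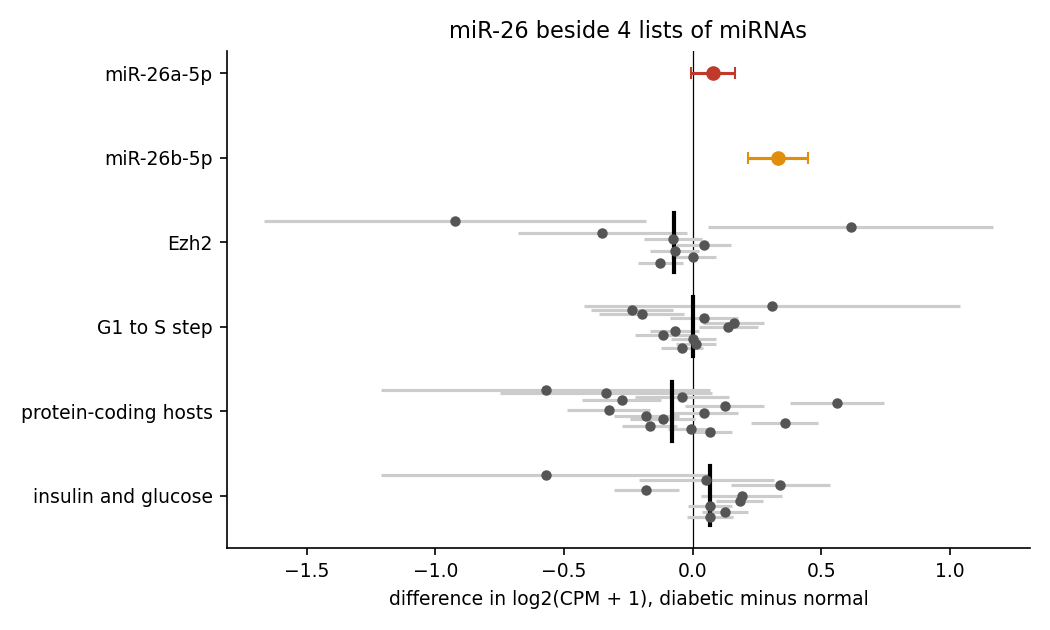
Diabetic minus normal difference in log2(CPM + 1) of miR-26a-5p and miR-26b-5p, and of the members of 4 lists, with standard errors. Black bars are list medians over the plotted members, and miR-153-3p is left out because every library was at or under 3 reads. Most list members lie near 0 and the medians run from -0.08 to 0.07.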

How the data were processed

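Small RNA of 6 testis libraries, 3 per group, was analysed. By its methods section, primers and adaptors were removed from single-end reads, known miRNAs were annotated with miRBase, and the authors expressed abundance as CPM. The deposited CPM are rounded to 1 decimal under headings that read TPM. The submitters' processing notes name Bowtie 0.12.2, HISAT2 2.0, StringTie 1.3.0 and the mouse build mm8 without roles, so no coordinates are printed. The rule for reads matching several miRNAs was not given in the sources used here. The extraction text describes a poly(A) library, whereas series and methods describe miRNA sequencing, which was followed.

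Whole reads were recovered as the library total at which every value is a whole number of reads within 0.05 CPM (100% of the values). A read was worth 1.82 to 3.27 CPM. Reads carried no molecular identifiers as far as stated, so intervals cover counting error only.

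The fit was limma 3.58.1 in R 4.3.3 (lmFit, eBayes with trend) on log2(CPM + 1) of miRNAs that reached 1 CPM in 3 or more libraries, without covariates, and Benjamini-Hochberg adjustment over all of them. Such differences understate changes of scarce miRNAs. The fit was also run on simulated reads with large changes, in which the most abundant miRNAs were left unchanged. That run does not bear on differences as small as those of the abundant miR-26 arms. Ratios of arms on the log2 scale used 0.5 reads added to each. Nothing says whether replicates were separate animals, so errors measure the spread between these samples.

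Members and lists were chosen with earlier results of these data known. Named miRNAs were the family, 3 neighbours on each side of miR-26b-5p and miR-26b-3p in mean CPM and of both hairpins in arm balance, the 5 most and least alike in Pearson's r over 6 libraries, and up to 4 abundant members per list. Alternatives were pseudocount 0.1, other filters, TMM, DESeq2 or upper-quartile factors, no trend, a replicate block, thinning, DESeq2 1.42.0, edgeR 4.0.16 and leaving out each library.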

Additional observations from a re-analysis of the deposited data

How the results depend on the processing

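The 0 miRNAs called at an adjusted p under 0.05 over the whole table (51 at an unadjusted p under 0.05) became 1 without a filter, when each library had to hold 10 or more reads, with TMM factors, with upper-quartile factors, with reads thinned to the smallest library and with the DESeq2 Wald test, 2 with the edgeR quasi-likelihood test and 8 without the trend. Leaving out 1 library gave from 0 to 2, with 2 without normal replicate 2 and 1 without diabetic replicate 1 or 3 or normal replicate 3. The 51 became 25 under the filter of 10 reads, where 257 miRNAs were tested. The cause of the other changes was not tested. In none of the 17 alternatives was miR-26b-5p called at an adjusted p under 0.05. In 14 of the 17 it stayed under an unadjusted p of 0.05. The exceptions were upper-quartile factors, no trend and leaving out normal replicate 1. All alternatives reuse these libraries and the contrast was known beforehand, so nothing is read from this count. The log2 difference of miR-26b-5p, 0.33, ran from 0.22 with upper-quartile factors to 0.38 without normal replicate 2. That of miR-26a-5p, 0.08, ran from -0.029 with upper-quartile factors to 0.15 without normal replicate 2. Upper-quartile factors lowered the median of all miRNAs by 0.11, and relative to the median the differences were 0.32 and 0.07. Rescaling moves abundant miRNAs and the median nearly alike, so these relative values are no check of the differences. The log2 balance of the paralogs, -0.25, ran from -0.30 to -0.21. In the alternatives other than upper-quartile factors, both 5p differences moved by less than the SD of the normal group. That SD was 0.12 for miR-26a-5p and 0.13 for miR-26b-5p. Some moved by more than the SD of the diabetic group, 0.05 for both. With the replicate block 1 miRNA was called, and the differences of both 5p arms kept their values. Same-numbered libraries did not deviate together (r = 0.01, -0.07 and -0.09 over 257 miRNAs). Alternatives for miR-26b-3p and its arm balance are not given, since every library held 3 reads or fewer of that arm, which is the limit that depth set on the 3p arms.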
